A study of Homo sapiens with 6 samples.

Results

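BCAM (basal cell adhesion molecule) and 7 laminin chain genes, LAMA3, LAMA4, LAMA5, LAMB1, LAMB2, LAMB3 and LAMC1, were examined in irradiated and unirradiated MDA-MB-231 cells. These 8 genes were taken by symbol from a table of 58735 genes. They were chosen because BCAM was among the genes with the largest rise after irradiation in these same libraries, so their differences between doses are given as a description. They were part of the fit across all genes, and because of that choice a call on a member is no independent test of it.

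MDA-MB-231 is an established human breast adenocarcinoma line with basal-like and mesenchymal features. All 6 libraries came from cells that the labels name SCR and list as genotype WT, and in the study that name belongs to the non-targeting shRNA control (shSCR). All were made from polyA-selected RNA. Cells received either 0 Gy (3 libraries) or 10 Gy of 137Cs gamma rays (3 libraries), and the irradiated cells were collected 24 h later. Nothing in the labels says whether the replicates were separate cultures, so p-values measure only the spread between these samples.

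Laminins are secreted heterotrimers of an alpha, a beta and a gamma chain that form the sheet of basement membranes on which epithelial and endothelial cells sit. Their trimers are named by chain number, so laminin-332 holds the products of LAMA3 and LAMB3, and laminin-511 those of LAMA5, LAMB1 and LAMC1. BCAM, which carries the Lutheran blood group antigens, is a transmembrane protein of the immunoglobulin superfamily and a receptor for the laminin alpha 5 chain, the product of LAMA5. It is known from red blood cells, endothelium and the basal surface of epithelia. Laminin-332 is the anchoring laminin of hemidesmosomes in stratified epithelium.

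Levels are given as the deposited FPKM, a read count divided by gene length and by sequencing depth, so that genes can be set side by side. Depth ran from 15643641 (0 Gy library 2) to 28861781 (10 Gy library 1) recovered reads per library. Libraries of the same dose correlated at 0.992 to 0.994 on the log2(FPKM + 1) scale. Irradiated library 1, the deepest, also had the most genes above 0, at 26496. Irradiated libraries had more genes above 0 (24876 to 26496 against 22169 to 23975) and a smaller sum of FPKM (246920 to 254918 against 269611 to 278380). The 5 genes VIM, AXL, CAV1, CD44 and EGFR are known to be high in this line. Their means at 0 Gy lay between 29.8 FPKM (EGFR) and 301 FPKM (VIM). Of 5 genes listed as low or absent, the hormone receptor genes ESR1 and PGR were at or below 0.0140 FPKM in both group means. CDH1 had means of 0.324 FPKM at 0 Gy and 0.366 FPKM at 10 Gy. ERBB2 was higher, at 7.08 and 7.67 FPKM, and so was GATA3, at 3.05 and 2.93 FPKM. Fewer cells of a kind and less RNA per cell cannot be told apart in such bulk samples.

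Promoter sequences of 3 genes are shown because these genes stood at the ends of the range, BCAM and LAMA5 with the largest differences upward and LAMB3 with the largest downward. Each is the stretch before the first RefSeq start (GRCh38.p14), 5′ to 3′ on the gene's strand. Capitals mark GC boxes, the letters GGGCGG or CCGCCC for the other strand, which Sp1-type factors are known to bind. Overlapping matches were counted. The BCAM sequence is chr19:44808809-44809058 (plus strand), that of LAMA5 is chr20:62367313-62367562 (minus strand) and that of LAMB3 is chr1:209652467-209652675 (minus strand), from which 41 bases within an annotated exon were left out.
BCAM: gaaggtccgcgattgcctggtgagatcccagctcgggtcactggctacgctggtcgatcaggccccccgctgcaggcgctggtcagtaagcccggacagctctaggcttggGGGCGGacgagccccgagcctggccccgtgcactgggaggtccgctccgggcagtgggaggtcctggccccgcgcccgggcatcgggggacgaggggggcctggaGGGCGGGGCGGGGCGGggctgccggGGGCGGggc
LAMA5: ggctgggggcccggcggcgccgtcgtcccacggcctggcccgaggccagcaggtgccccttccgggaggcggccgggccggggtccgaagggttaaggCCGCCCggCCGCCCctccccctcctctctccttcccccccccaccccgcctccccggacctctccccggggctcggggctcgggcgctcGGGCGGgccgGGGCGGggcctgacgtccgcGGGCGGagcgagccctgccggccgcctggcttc
LAMB3: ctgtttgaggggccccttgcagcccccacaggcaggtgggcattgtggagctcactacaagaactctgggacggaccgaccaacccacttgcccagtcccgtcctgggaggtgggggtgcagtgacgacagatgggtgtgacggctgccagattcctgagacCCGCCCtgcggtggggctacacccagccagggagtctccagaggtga

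BCAM and LAMA5 each held 5 GC boxes in 250 bases. In BCAM, 4 of the 5 lay within 34 bases of the start, at 34, 29, 24 and 9 bases before it. LAMB1 held 4, LAMC1 held 3, LAMA3, LAMB2 and LAMB3 held 1 each at their first start, and LAMA4 held 0. Among all 35116 windows of 250 bases in the table, 42.6% held at least 1 GC box and 4.15% held 5 or more. The AP-1 letters TGANTCA occurred in 2 places in the window of LAMA3, against 0.402% of all windows with 2 or more. The LAMA3 window lies before a start at chr18:23873020, inside the annotated gene. The stretch before the first base of the LAMA3 gene was not searched. LAMB3 held 1 such match at the last of its 3 starts, and 6.57% of all windows held any. The E-box CACGTG and the antioxidant response element core TGACNNNGC, searched on both strands like the others, were found in none of the windows of the 8 genes. They occurred in 6.34% and 10.9% of all windows. Motifs were chosen after the sequences were seen, and the matches describe letters, not binding.

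At 0 Gy, LAMB3 was the most abundant member at 123 ± 2.88 FPKM (SD, n = 3), at the 97.6th percentile of the genes tested. Among the members LAMA5 followed at 56.9 ± 4.16 FPKM, then LAMC1 at 51.2 ± 3.20, LAMB2 at 41.2 ± 0.691 and LAMB1 at 22.5 ± 0.333 FPKM (SD, n = 3 each). LAMA3 was at 3.95 ± 0.380 FPKM and BCAM at 2.45 ± 0.119 FPKM, at the 33.8th and 21.9th percentiles. LAMA4 was at 0.160 ± 0.028 FPKM. Only the ranges of LAMA5 and LAMC1 overlapped among neighbours in this order down to LAMA4. The transcript of the ligand chain exceeded that of the receptor, with LAMA5 over BCAM at 23.3 ± 2.59 (SD, n = 3). LAMA1, LAMA2, LAMB4 and LAMC3, chain genes outside the set, stayed at or under 0.132 FPKM in every library.

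**Figure D1:**
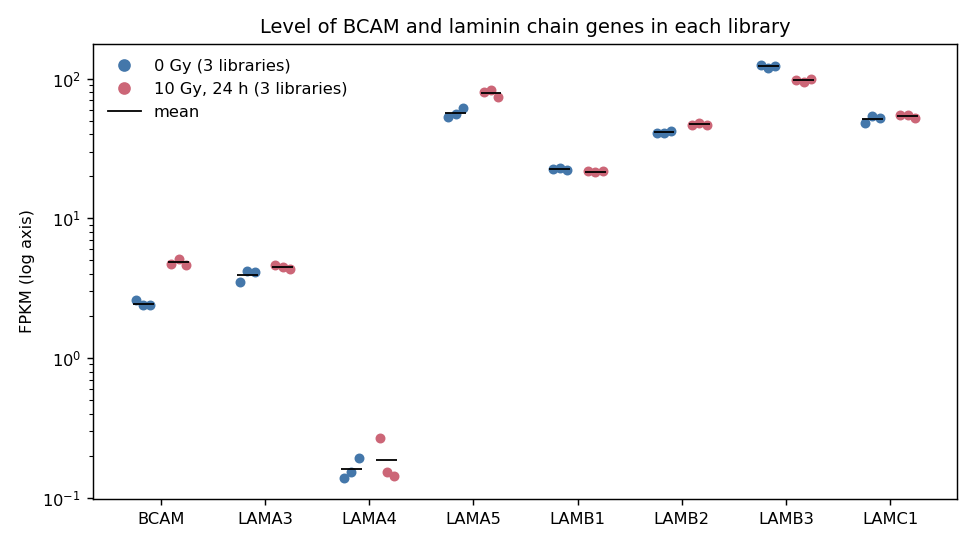
FPKM of BCAM and the 7 laminin chains in each library on a log axis, with points for libraries and lines for group means. LAMB3 was highest at both doses and LAMA4 was below 0.3 FPKM in every library. BCAM moved from a mean of 2.45 to 4.83 FPKM, past LAMA3 with the deposited lengths.

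After 10 Gy the order of the members with the deposited lengths changed in 1 place, where BCAM passed LAMA3. The ranges of LAMA5 and LAMC1 no longer overlapped. Levels per length depend on the length used, because the deposited length is the union of all annotated exons of a gene. That length is 5009 bases for BCAM, 2.04 times its principal coding transcript of 2453 bases and 15 exons. With FPKM rescaled to principal transcripts, BCAM was at 5.00 FPKM and LAMA3 at 5.44 FPKM at 0 Gy, and the order of the members was kept. LAMA5 was then at 71.15 FPKM at 0 Gy, so LAMA5 over BCAM was smaller than with the deposited lengths. With the shortest coding transcript of LAMA3, of 5007 bases, LAMA3 would have been at 11.6 FPKM at 0 Gy. That is above BCAM at 10 Gy per principal transcript, at 9.87 FPKM, so the place where BCAM passed LAMA3 depends on the length used.

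BCAM (ENSG00000187244) lies at chr19:44809059-44821421 of GRCh38 on the plus strand. Its levels were 2.58, 2.38 and 2.38 FPKM in the 3 libraries at 0 Gy. At 10 Gy they were 4.71, 5.12 and 4.67 FPKM. The groups did not overlap, and the lowest irradiated library was well above the highest unirradiated library. These values rested on 183 to 276 recovered reads per library at 0 Gy and 468 to 706 at 10 Gy. The mean went from 2.45 to 4.83 ± 0.249 FPKM (SD, n = 3), a ratio of 1.98. The difference on the log2(FPKM + 1) scale was 0.76 (standard error 0.053, 95% interval 0.63 to 0.88). It was the 58th largest rise of 12128 genes tested with limma and the 5th largest of 10491 protein-coding genes, which is the value that chose the set. The added 1 shrinks the difference of a gene at such a level.

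LAMA5 (ENSG00000130702) lies at chr20:62307955-62367312 on the minus strand, with 80 exons in its principal transcript. It encodes the alpha 5 chain of laminin-511 and laminin-521, the chain that BCAM binds. Its levels were 53.5, 55.7 and 61.5 FPKM at 0 Gy and 80.2, 83.1 and 73.3 FPKM at 10 Gy. All irradiated libraries were above all unirradiated ones. The mean went from 56.9 to 78.9 ± 5.03 FPKM (SD, n = 3), a ratio of 1.39 and a log2 difference of 0.46 (standard error 0.064, 95% interval 0.31 to 0.62). Receptor and ligand chain were therefore both higher after 10 Gy, BCAM by the larger ratio, and LAMA5 over BCAM went from 23.3 to 16.3 ± 0.661 (SD, n = 3) without overlap. LAMA5-AS1, an antisense gene that lies wholly within LAMA5 over 3486 bases, was at 0.389, 0.540 and 0.822 FPKM at 0 Gy and 2.70, 1.75 and 1.53 FPKM at 10 Gy. Its log2 difference was 0.91 (limma, Benjamini-Hochberg adjusted p = 0.00576), and its mean at 0 Gy was under the filter, so it was tested through its irradiated libraries. The strand setting of the counts is not given in the sources used here, and without strand the reads of LAMA5 and LAMA5-AS1 cannot be told apart.

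LAMA3 (ENSG00000053747) lies at chr18:23689443-23956222 on the plus strand and encodes the alpha 3 chain of laminin-332. Its levels were 3.52, 4.22 and 4.13 FPKM at 0 Gy and 4.60, 4.46 and 4.31 FPKM at 10 Gy. The groups did not overlap, but the gap between the highest unirradiated and the lowest irradiated library was smaller than the spread at 0 Gy. The ratio of means was 1.13 and the log2 difference 0.14 (standard error 0.064, 95% interval -0.01 to 0.29). Without 0 Gy replicate 1, the lowest library, that difference was 0.08.

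LAMA4 (ENSG00000112769) lies at chr6:112108760-112254939 on the minus strand and encodes the alpha 4 chain, known from vessels, muscle and fat. It was the member below the filter of 1 FPKM on the mean over all libraries. Its levels were 0.138, 0.152 and 0.191 FPKM at 0 Gy and 0.266, 0.151 and 0.144 FPKM at 10 Gy. The groups overlapped, and irradiated library 1 was the highest. Reads summed to 109 (95% Poisson interval 89.5 to 131) at 0 Gy and 160 (136 to 187) at 10 Gy, of which 92 came from irradiated library 1, the deepest library. These intervals cover counting error only. Given the overlap, no difference in LAMA4 was detectable at this depth.

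LAMB2 (ENSG00000172037) lies at chr3:49121114-49133118 on the minus strand and encodes the beta 2 chain of laminin-521. Its levels were 40.7, 40.9 and 42.0 FPKM at 0 Gy and 46.4, 48.0 and 46.5 FPKM at 10 Gy. Every irradiated library was above every unirradiated one, and both groups were tight. The ratio of means was 1.14 and the log2 difference 0.19 (standard error 0.030, 95% interval 0.12 to 0.26). LAMB1 (ENSG00000091136), at chr7:107923799-108003255 on the minus strand, encodes the beta 1 chain of laminin-511. It was at 22.4, 22.9 and 22.2 FPKM at 0 Gy and 21.7, 21.4 and 21.8 FPKM at 10 Gy. The log2 difference of LAMB1 was -0.05 (standard error 0.029, 95% interval -0.12 to 0.01) in the values as deposited, and its sign turned to 0.07 with TPM scaling and 0.19 with upper quartile scaling. The 2 beta chains that pair with LAMC1 thus stood differently, with LAMB2 over LAMB1 going from 1.83 ± 0.053 to 2.17 ± 0.062 (SD, n = 3). LAMB1 overlaps DLD on the other strand over 7932 bases, and reads there cannot be told apart without strand.

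LAMB3 (ENSG00000196878) lies at chr1:209614870-209652466 on the minus strand and encodes the beta 3 chain, which occurs in laminin-332. Its levels were 126, 120.1 and 123 FPKM at 0 Gy and 97.5, 95.1 and 99.9 FPKM at 10 Gy. All irradiated libraries were below all unirradiated ones. The ratio of means was 0.793 and the log2 difference -0.33 (standard error 0.034, 95% interval -0.41 to -0.25). With upper quartile scaling it was -0.08 with an interval from -0.28 to 0.12. LAMC1 (ENSG00000135862) lies at chr1:183023460-183145592 on the plus strand and encodes the gamma 1 chain that most laminins share. It was at 47.7, 54.0 and 51.8 FPKM at 0 Gy and 55.3, 54.9 and 52.6 FPKM at 10 Gy. The groups overlapped, with a log2 difference of 0.08 (standard error 0.049, 95% interval -0.03 to 0.20), which was 0.03 without 0 Gy replicate 1. Its antisense gene LAMC1-AS1 had means of 1.06 and 1.78 FPKM and was not called (limma, Benjamini-Hochberg adjusted p = 0.172).

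**Figure D2:**
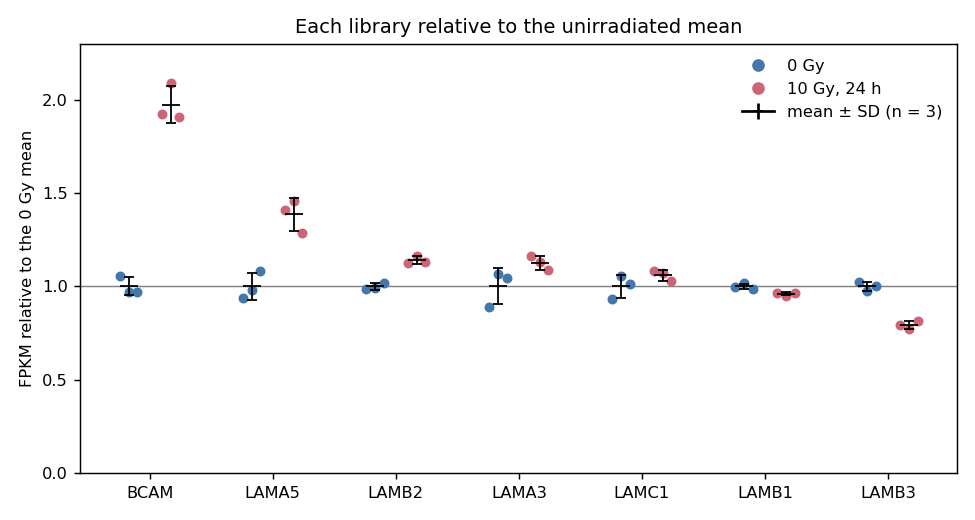
FPKM of each library divided by the 0 Gy mean of its gene, with points for libraries and bars for mean ± SD (n = 3). BCAM stood highest with a mean ratio of 1.98, LAMA5 followed at 1.39, LAMB1 stayed near its unirradiated mean, and LAMB3 lay below it at 0.793.

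Of the 7 members that passed the filter, limma with Benjamini-Hochberg adjustment over all 12128 genes called 3 higher (BCAM, LAMA5 and LAMB2) and 1 lower (LAMB3) at an adjusted p under 0.05. Over all genes tested, 35.6% were called, 11.9% higher and 23.7% lower. The groups did not overlap in 4 members that were higher and 2 that were lower, where all genes gave 19.1% and 32.8%, or 51.9% together. With TPM scaling 5 members were called higher and 1 lower, and with upper quartile scaling 5 higher and 0 lower. As BCAM was picked from this contrast, nothing is read from these counts. The median log2 difference of all genes tested was -0.04.

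Each deposited library had been scaled by a factor, 0.973 to 0.991 at 0 Gy and 1.03 to 1.04 at 10 Gy. A larger factor gives lower FPKM, so the deposited scaling itself differed between doses. Another choice of scaling moved all genes together. The median of all genes was higher by 0.11 on the log2 scale with TPM scaling, by 0.22 with upper quartile scaling and by 0.04 with median of ratios. The higher share of all calls was 33.4% in the deposited values, 74.5% with TPM, 97.0% with upper quartile and 48.7% with median of ratios. BCAM was higher under each of these, with log2 differences from 0.76 to 0.96, and so was LAMA5, from 0.46 to 0.72. LAMB2 was higher in each as well, from 0.19 to 0.44. LAMA3 and LAMC1 had intervals that included 0 in the deposited values alone, and with TPM their differences were 0.25 and 0.21. LAMB3 was below 0 in each, with an interval that included 0 under upper quartile scaling. That scaling left 122 genes called lower of all tested, and of the genes named below as fallen or lower in the deposited values it kept the call of G0S2 alone.

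**Figure D3:**
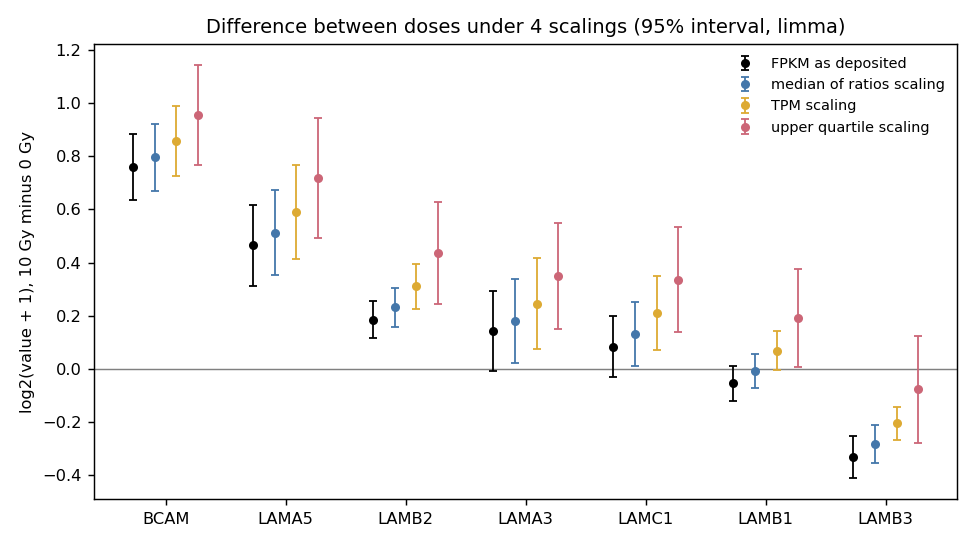
Difference on the log2(value + 1) scale, 10 Gy minus 0 Gy, for 7 members under 4 scalings, with points for limma estimates and bars for 95% intervals. The order from BCAM down to LAMB3 was the same under each scaling, while the whole series shifted upward, and LAMB1 changed sign.

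Ratios between genes of a library do not depend on its scaling, so the make-up of the alpha and beta chains was compared as shares of the summed FPKM of each type. A ratio shows unequal change and not which gene changed. Among beta chains, LAMB3 made up 65.9 ± 0.657% at 0 Gy and 58.7 ± 0.818% at 10 Gy (SD, n = 3). LAMB2 went from 22.1 ± 0.477% to 28.3 ± 0.808%, and LAMB1 from 12.1 ± 0.325% to 13.0 ± 0.088%. None of these shares overlapped between doses. LAMB3 over LAMB2 went from 2.99 ± 0.093 to 2.08 ± 0.087 (SD, n = 3).

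Alpha chain transcripts were nearly all LAMA5, at 93.1 ± 0.430% before and 94.3 ± 0.300% after 10 Gy (SD, n = 3). The share of LAMA3 went from 6.47 ± 0.471% to 5.34 ± 0.228% although its own level was not lower. The summed level of alpha chains was 61.1 ± 4.43 FPKM at 0 Gy and 83.6 ± 5.13 FPKM at 10 Gy, while beta chains summed to 187 ± 2.59 and 166 ± 1.89 FPKM (SD, n = 3). Neither sum overlapped between doses. Unlike the shares, these sums move with the scaling.

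**Figure D4:**
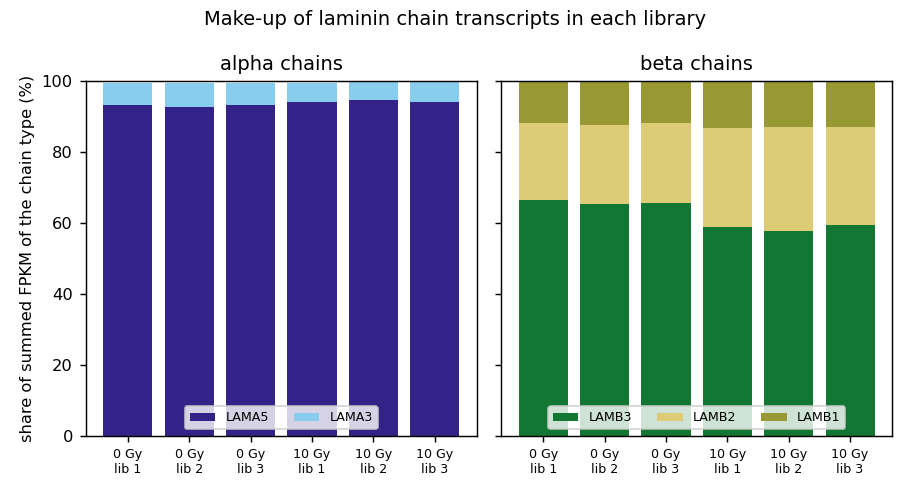
Share of the summed FPKM of alpha and beta chains taken by each chain in each library, in percent. LAMB3 was below 60% of beta chains in all irradiated libraries, and LAMA5 held over 92% of alpha chains throughout.

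Set out by trimer with the deposited lengths, the chains of laminin-521 were the most even at 0 Gy. There LAMA5 was at 1.38 times the lowest chain, LAMB2. For laminin-511 the lowest chain was LAMB1, and LAMA5 was at 2.53 times its level. With shortest coding transcripts LAMA5 would have been at 71.15 FPKM, LAMC1 at 54.5 FPKM, LAMB1 at 65.2 FPKM and LAMB2 at 50.1 FPKM. Laminin-511 would then have been more even than laminin-521. In laminin-332, with the deposited lengths, LAMB3 was at 31.1 times the level of LAMA3 by their group means. Per library, LAMB3 over LAMA3 was 31.4 ± 3.89 at 0 Gy and 21.9 ± 1.12 at 10 Gy (SD, n = 3). With principal transcripts LAMB3 was at 134 FPKM and LAMA3 at 5.44 FPKM at 0 Gy, a smaller ratio. With shortest coding transcripts they would have been at 147 and 11.6 FPKM, a ratio smaller still. In laminin-411 and laminin-421 the lowest chain was LAMA4, with LAMC1 at 319 times its level. With principal transcripts LAMA4 was at 0.288 FPKM and LAMC1 at 54.5 FPKM, a smaller ratio. Transcript levels of chains do not give the amount of any trimer, which was not measured.

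BCAM shares its ligand with other laminin receptors, mainly the integrins with alpha 3 or alpha 6 subunits, dystroglycan (DAG1) and syndecans. Of 13 such genes, 12 were tested. ITGA1 rose, 5 fell and 6 were not called, with a median log2 difference of -0.10 beside -0.04 for all genes. Over all genes tested, 11.9% were called higher and 23.7% lower. SDC1, which encodes syndecan-1, fell by 0.32 on the log2 scale (limma, Benjamini-Hochberg adjusted p = 0.000772), from 22.5 ± 0.470 to 17.8 ± 0.283 FPKM (SD, n = 3). ITGA3, the alpha 3 subunit that binds laminin-332 and laminin-511, fell by 0.29 (adjusted p = 0.00117), from 134 ± 2.55 to 110 ± 2.28 FPKM. CD151, the tetraspanin that joins these integrins, was lower by a log2 difference of -0.23 (adjusted p = 0.0164), which became 0.03 with upper quartile scaling. ITGA6 and SDC2 were each called with -0.12 (adjusted p = 0.0261 for both), and with upper quartile scaling they were at 0.13 and 0.11. ITGA1 rose by 0.30 (adjusted p = 0.00818), from 2.23 to 2.98 FPKM. RPSA and ITGB1, the most abundant of the list at 289 and 239 FPKM, were not called, and RPSA has processed pseudogenes that can share its reads. With TPM scaling the list gave 3 higher and 2 lower, and with upper quartile scaling 4 higher and 0 lower. A direction for the list as a whole therefore did not hold across scalings.

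Hemidesmosomes tie laminin-332 to keratin filaments through the integrin of alpha 6 and beta 4 subunits. All 7 genes of that list were tested, and 1 rose and 2 fell, against 11.9% and 23.7% of all genes. The median log2 difference was 0.02. COL7A1, the collagen of the anchoring fibrils that attach to laminin-332, rose by 0.39 (limma, Benjamini-Hochberg adjusted p = 0.00109), from 22.8 ± 0.398 to 30.3 ± 1.60 FPKM (SD, n = 3). COL7A1 thus stood on the other side from LAMB3. PLEC, which encodes the plakin plectin, was at 203 and 205 FPKM. The 2 lower genes were CD151 and ITGA6, and with TPM scaling the list gave 3 higher and 0 lower.

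Basement membrane partners include the collagen IV chains, nidogens and the heparan sulfate proteoglycans perlecan (HSPG2) and agrin (AGRN). Of 16 genes, 9 were tested, of which 3 rose and 1 fell, against 11.9% and 23.7% of all genes. HSPG2 rose by 0.47 (limma, Benjamini-Hochberg adjusted p = 0.00472), from 3.07 ± 0.372 to 4.62 ± 0.344 FPKM (SD, n = 3). COL4A5 rose by 0.33 (adjusted p = 0.0131), from 1.38 to 2.00 FPKM. PXDN, the peroxidase that crosslinks collagen IV, rose by 0.30 (adjusted p = 0.0031), from 32.1 to 39.7 FPKM. AGRN, which binds the laminin coiled coil, was lower in the values as deposited (-0.14, adjusted p = 0.0327) and at 0.11 with upper quartile scaling. NID1, the nidogen that links laminin to collagen IV, was at 0 in every library at 0 Gy. The median of the list was -0.00 on the log2 scale, and COL4A1 and COL4A2 were not called.

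Dystroglycan binds laminin through a sugar chain that dedicated enzymes build. Of 18 such genes, 15 were tested, and 0 rose and 4 fell, against 11.9% and 23.7% of all genes. The median log2 difference was -0.06 beside -0.04 for all genes. DPM3 and DPM2, subunits of the enzyme that makes dolichol phosphate mannose, fell by 0.43 and 0.35 (limma, Benjamini-Hochberg adjusted p = 0.00597 and 0.00837), from 29.9 to 21.8 and from 18.1 to 13.9 FPKM. GMPPB and RXYLT1 were the others called lower. DPM1, the catalytic subunit and the most abundant of the list, was at 55.3 and 50.3 FPKM and was not called. With TPM scaling 4 of the list were called higher and 3 lower, and with upper quartile scaling 4 higher and 0 lower. DAG1 itself was at 50.8 ± 2.38 and 49.9 ± 1.50 FPKM (SD, n = 3) and was not called.

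BCAM belongs to the immunoglobulin superfamily of adhesion molecules, of which 21 others were listed and 13 tested. In that list 6 genes rose and 2 fell, against 11.9% and 23.7% of all genes, with a median log2 difference of 0.06. CADM4 rose by 0.70 (limma, Benjamini-Hochberg adjusted p = 0.00909), from 0.883 ± 0.330 to 2.05 ± 0.347 FPKM (SD, n = 3), and it passed the filter through its irradiated libraries. ICAM1, a ligand of leukocyte integrins, rose by 0.39 (adjusted p = 0.00707), from 10.3 to 13.8 FPKM. MCAM, a receptor for laminin with the alpha 4 chain and a close relative of BCAM, rose by 0.36 (adjusted p = 0.00072), from 9.29 ± 0.180 to 12.2 ± 0.283 FPKM. L1CAM, ICAM5 and NECTIN2 also rose, by 0.34, 0.26 and 0.16. The 6 genes that rose were called higher under every scaling tried. NECTIN1 fell by 0.28 (adjusted p = 0.00727), and ALCAM, another relative of BCAM, was called with -0.17 (adjusted p = 0.00575) in the deposited values and was at 0.08 with upper quartile scaling. BSG, the most abundant at 237 FPKM, was not called.

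Inside the cell BCAM is known to bind spectrin, and Lutheran antigens on red cells are activated through RAP1 and JAK2 signalling. Of 10 listed partners 8 were tested, and 1 rose and 3 fell, against 11.9% and 23.7% of all genes. SPTAN1, the nonerythroid alpha spectrin, rose by 0.28 (limma, Benjamini-Hochberg adjusted p = 0.00187), from 23.7 ± 0.936 to 29.1 ± 0.356 FPKM (SD, n = 3). Its beta partner SPTBN1 was at 25.8 and 27.9 FPKM and was not called. RAP1A and RAP1B were called with -0.21 and -0.13, and with upper quartile scaling they were at 0.02 and 0.10.

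**Figure D5:**
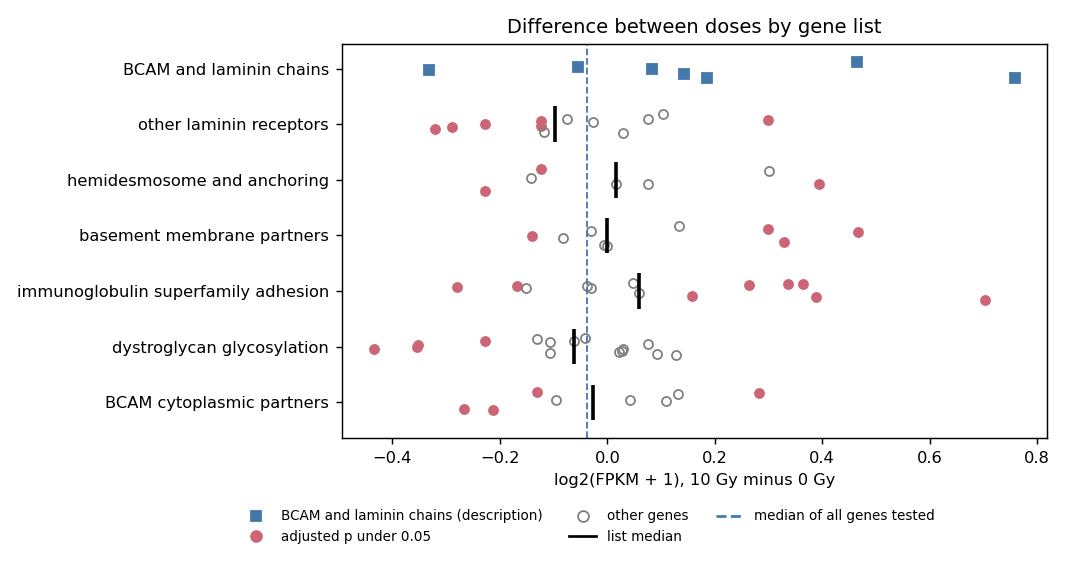
Difference on the log2(FPKM + 1) scale, 10 Gy minus 0 Gy, for each gene with a mean of at least 1 FPKM in 6 lists, beside 7 of the chosen genes (squares, given as a description). Filled circles passed an adjusted p under 0.05, vertical bars are list medians and the dashed line is the median of all genes at -0.04. BCAM at 0.76 lay to the right of every listed gene, and CADM4 at 0.70 was the nearest.

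Because BCAM is also a red cell and endothelial protein, markers of those cells were read in the same libraries. Of 9 erythroid markers 5 were at 0 in all 6 libraries, HBB, HBA2 and KLF1 among them. The summed level of the list was 0.022 to 0.087 FPKM at 0 Gy and 0.112 to 0.195 FPKM at 10 Gy. The 6 endothelial markers summed to 2.20 to 2.57 FPKM and 2.92 to 3.25 FPKM. PECAM1 was the one tested, and it rose by 0.40 (limma, Benjamini-Hochberg adjusted p = 0.00265), from 1.22 to 1.94 FPKM. KDR was at 1.00 ± 0.144 FPKM at 0 Gy and 0.948 ± 0.110 FPKM at 10 Gy (SD, n = 3), with overlapping groups and a mean under the filter. CDH5, VWF, TIE1 and TEK had means under 0.1 FPKM at both doses. Among 5 leukocyte markers CD3E was at 0 in all libraries, PTPRC had means of 0.0040 and 0.0012 FPKM, and the list summed to 1.39 to 2.59 and 2.06 to 3.21 FPKM, mostly CD14. The part of these small differences in the BCAM difference was not tested.

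The genes whose 6 values were most like those of BCAM were ranked by the root mean square difference of their log2(FPKM + 1) values, each centred on its own 0 Gy mean, over 10490 protein-coding genes. TP53INP2 was the nearest with a difference of 0.059, from 7.63 ± 0.314 to 13.0 ± 0.166 FPKM (SD, n = 3). BAIAP3 followed at 0.068, then PPL at 0.079, SELENBP1 at 0.087 and TOB1 at 0.094. PPL, which encodes the plakin periplakin, went from 4.35 ± 0.092 to 8.17 ± 0.357 FPKM, a ratio of 1.88. BAIAP3 was at 0.829 FPKM at 0 Gy, under the filter, and at 1.99 FPKM at 10 Gy. This ranking found genes by the same values that chose BCAM, so the likeness is a description.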

How the data were processed

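Transcript levels in 6 libraries, 3 at 0 Gy and 3 at 10 Gy, were grouped by the treatment in the labels. The authors deposited FPKM from polyA libraries. The submitters' processing notes name HISAT2 and GRCh38, and the counting program is not given in the sources used here. Gene lengths deposited with the table equal the union of exons in GENCODE for 58724 of 58735 genes. FPKM came out as whole reads for 100% of values above 0 (within 0.05 reads), which gave 15643641 to 28861781 reads per library. These reads served for depth and for the reads behind BCAM and LAMA4. The number of value columns left unused was 0.

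The doses were compared by limma 3.58.1 (R 4.3.3) after a log2 transform of FPKM plus a pseudocount of 1. The eBayes step used an intensity trend, and 12128 genes whose mean over the 6 libraries reached 1 FPKM were tested. Genes were called at a Benjamini-Hochberg adjusted p under 0.05. On simulated data with 200 changed genes among 12128, the procedure recovered 92% of 2-fold and 47% of 1.3-fold changes, and 6.71% of the 149 genes called were unchanged.

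The members and the gene lists were chosen with earlier results of these data known. From each list were named the 2 called genes with the largest rise, the 2 with the largest fall and the 2 most abundant at 0 Gy. Neighbouring and overlapping genes and the 5 genes most like BCAM were also named, and any gene outside that rule was chosen after its values were seen. Some listed genes are not reported here. Alternatives covered the pseudocount, the filter, 3 scalings, the replicate block, eBayes settings, protein-coding genes alone and each replicate left out. Rescaling to the principal transcript was added after the data were seen. Promoters came from RefSeq (GRCh38.p14) and figures from Python 3.11.15 with matplotlib 3.10.9.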

Additional observations from a re-analysis of the deposited data

How the results depend on the processing

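BCAM, LAMA5, LAMB2 and LAMB3 kept their direction under every alternative tried. The size of the BCAM difference moved with the pseudocount, to 0.95 at a pseudocount of 0.1 and 0.40 at 5, and with scaling, to 0.86 with TPM and 0.96 with upper quartile. BCAM and LAMA3 have no value with a filter at a mean of 5 FPKM, which they do not reach. Basement membrane partners called numbered 2 with no filter and 2 with a mean of at least 5 FPKM, and dystroglycan glycosylation genes called numbered 7 with TPM scaling. The cause was not tested. Members called, 3 higher and 1 lower in the deposited values, were 5 higher and 1 lower with TPM scaling, 5 higher and 0 lower with upper quartile scaling and 3 in all with the 5 FPKM filter. Leaving out each replicate in turn gave 0.72 to 0.79 for BCAM, 0.08 to 0.18 for LAMA3, 0.03 to 0.12 for LAMC1 and 2660 to 3993 genes called. The lowest values of LAMA3 and LAMC1 came without 0 Gy replicate 1. Members called stayed at 4 when a replicate was left out, other laminin receptors ran from 3 to 6, basement membrane partners from 3 to 4, dystroglycan glycosylation from 3 to 5 and immunoglobulin superfamily adhesion from 6 to 8. The count of genes was 2705 without 10 Gy replicate 1 and 2660 without 10 Gy replicate 2, and without the latter 3 receptors were called. A replicate block in the limma model gave 3503 genes called, 1137 higher and 2366 lower, and 4 members. In a check of the pairing, same-numbered libraries did not deviate together (correlations of -0.040, -0.035 and -0.101). With 3 libraries per dose, each centred on its group mean, this cannot exclude that same-numbered cultures were paired. Low levels limit LAMA4 and the untested chains.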

Other observations

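Proteases that cut laminin chains were listed apart. Of 8 genes 3 were tested, and BMP1, which trims laminin chains and collagen VII, rose by 0.15 on the log2 scale (limma, Benjamini-Hochberg adjusted p = 0.0386), from 5.90 ± 0.191 to 6.64 ± 0.284 FPKM (SD, n = 3). PLAU, the urokinase plasminogen activator, fell by 0.43 (adjusted p = 0.00333), from 107 ± 9.65 to 79.3 ± 3.23 FPKM. MMP14 was at 170.5 and 173 FPKM and was not called. The median of the list was 0.02 on the log2 scale.

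The genes beside BCAM on chromosome 19 did not move as a block. CBLC, 8.41 kb before BCAM, was at 0 in every library. BCL3, an IkB family coactivator 49.0 kb before it on the same strand, rose by 0.40 (limma, Benjamini-Hochberg adjusted p = 0.00105), from 14.3 ± 0.635 to 19.1 ± 0.634 FPKM (SD, n = 3). NECTIN2, 24.8 kb after it, rose by 0.16 (adjusted p = 0.0148). TOMM40, 69.1 kb after it, was called with -0.23 (adjusted p = 0.00601), which became 0.02 with upper quartile scaling.

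Neighbours of the laminin chains also differed in direction. G0S2, 23.0 kb from LAMB3, fell by 0.65 (limma, Benjamini-Hochberg adjusted p = 0.000707), from 138 ± 11.9 to 87.6 ± 2.49 FPKM (SD, n = 3). USP19, 176 bases from LAMB2 on the same strand, was at 16.8 and 17.9 FPKM and was not called. OSBPL2, 11.7 kb from LAMA5, rose by 0.28 (adjusted p = 0.00867), while ADRM1, which overlaps the end of LAMA5 over 908 bases on the other strand, fell by 0.28 (adjusted p = 0.00171). DLD, which overlaps LAMB1, fell by 0.27 (adjusted p = 0.00151). ADRM1 and DLD were lower where LAMA5 was higher and LAMB1 nearly level.

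Of the line's own markers, VIM, AXL, CAV1 and CD44 were called lower at 10 Gy, AXL from 259 ± 4.28 to 184 ± 4.63 FPKM (SD, n = 3, limma, Benjamini-Hochberg adjusted p = 0.000445), and EGFR was not called. With upper quartile scaling the AXL difference was -0.23 and was not called, and CD44 was at 0.15.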
